A study of Mus musculus with 10 samples.

Results

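Of the 28585 genes in a deposited count table of sorted mouse brain cells, 10 are described here as the microglial surface and secreted signature: Tmem119, Olfml3, Sparc, Gpr34, Crybb1, Golm1, Serpine2, Nav3, Upk1b and Cdh23. They were chosen by name, with their levels in these same 10 libraries already known (in CPM, the reads of a gene scaled to the library total), so the differences of these genes between the groups are given as descriptions without a test. Each name matched 1 gene identifier, and all 10 genes passed the filter on low counts that 15151 genes passed. All cells came from the hemisphere on the side of an experimental brain ischemia and were sorted by their fluorescent reporter without antibody staining. Microglia (3 libraries, replicates 39, 40 and 41) were tdTomato+ cells of CX3CR1CreERT2:Rosa26-tdT mice aged 13 to 14 weeks, in which the Cx3cr1 gene drives an inducible recombinase that switches on the red reporter. Parabiotic CD11c cells (3 libraries, replicates 3, 11 and 15) were CD11c-eYFP+ cells from C57BL/6 mice aged 15 to 16 weeks that shared their circulation with a Tg(Itgax-Venus)1Mnz partner, in which the CD11c gene Itgax drives a yellow reporter. Cells of the host itself carry no such reporter and were not sorted. Transgenic CD11c cells (4 libraries, replicates 23, 24, 26 and 27) were CD11c-eYFP+ cells of Tg(Itgax-Venus)1Mnz mice aged 13 to 14 weeks, and the labels do not separate reporter-positive cells of the brain from those of the blood. Mice were labelled female where a sex was given. Parabiotic replicate 15 was placed by its title, since its labels name no cell type. The labels do not say how long after ischemia the cells were taken, when the recombinase was induced, or whether a library pools animals, so the spread between replicates may be partly technical.

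Microglia are the resident macrophages of the brain and are set apart from other macrophages by a set of genes that depends on their place in the brain and on TGF-beta signalling. Several of these genes encode membrane receptors or secreted matrix and inhibitor proteins, and some, such as Tmem119, are used to tell microglia from blood-derived phagocytes that enter injured tissue. Olfml3, Sparc and Serpine2 encode secreted proteins. Tmem119, Gpr34, Upk1b and Cdh23 encode proteins of the cell membrane, and Golm1 encodes a Golgi membrane protein that can be cleaved and released. Crybb1, a lens crystallin, and Nav3, a microtubule-associated navigator protein, are best known as proteins inside the cell, so the label of surface and secreted genes covers 8 of the 10.

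All 10 genes were found in GENCODE M21 on GRCm38. On this build Olfml3 lies on the minus strand of chromosome 3 from 103722222 to 103738001, Sparc on the minus strand of chromosome 11 from 55394500 to 55423183, and Serpine2 on the minus strand of chromosome 1 from 79794197 to 79861180. The membrane protein genes are Tmem119 (chromosome 5, 113793729 to 113800516, minus), Gpr34 (chromosome X, 13632089 to 13640858, plus), Upk1b (chromosome 16, 38773184 to 38800328, minus) and Cdh23 (chromosome 10, 60302748 to 60696490, minus). Golm1 spans 59634626 to 59675811 on the minus strand of chromosome 13, Crybb1 spans 112255815 to 112269585 on the plus strand of chromosome 5, and Nav3 spans 109681259 to 110456204 on the minus strand of chromosome 10. Gpr34 lies inside Cask and Cdh23 contains Vsir, each on the opposite strand and with 0 shared exon bases. Golm1 shares 1297 exon bases with Naa35 on the opposite strand, and without a stated strand setting the reads of the 2 genes cannot be told apart there.

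RefSeq promoters on GRCm38.p6 were found for 6 of the 10 genes, Olfml3, Sparc, Crybb1, Golm1, Serpine2 and Cdh23. The 250 bases before the start site are shown for 3 of them, because they cover a secreted protein, the gene with the largest difference between the parabiotic and microglial groups, and a gene low in both CD11c groups. Capitals mark matches on either strand to GAGGAA, the core bound by PU.1 and other ETS factors, or to TATAAA, the TATA box. The sequence of Olfml3 is chr3:103738002-103738251 on the minus strand, that of Crybb1 is chr5:112255570-112255819 on the plus strand, and that of Cdh23 is chr10:60696491-60696740 on the minus strand.
Olfml3: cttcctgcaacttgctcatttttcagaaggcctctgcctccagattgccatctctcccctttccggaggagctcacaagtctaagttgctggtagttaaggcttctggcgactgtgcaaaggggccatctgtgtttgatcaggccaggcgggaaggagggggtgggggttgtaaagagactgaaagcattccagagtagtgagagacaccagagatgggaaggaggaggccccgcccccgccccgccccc
Crybb1: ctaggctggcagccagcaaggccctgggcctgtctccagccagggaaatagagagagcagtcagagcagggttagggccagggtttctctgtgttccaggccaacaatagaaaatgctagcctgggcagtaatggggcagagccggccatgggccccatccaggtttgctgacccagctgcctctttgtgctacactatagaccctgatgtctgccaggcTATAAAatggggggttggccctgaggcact
Cdh23: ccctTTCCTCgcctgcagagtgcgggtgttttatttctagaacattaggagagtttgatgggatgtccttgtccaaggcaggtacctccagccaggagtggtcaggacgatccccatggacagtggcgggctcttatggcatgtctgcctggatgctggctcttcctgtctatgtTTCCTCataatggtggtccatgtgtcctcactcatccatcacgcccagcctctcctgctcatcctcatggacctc
Among the 6 promoters, read from 250 bases before to 50 after the start, GAGGAA was found in 1, that of Cdh23, where it lies on the reverse strand at -246 and -75. In all 27025 RefSeq promoters of the same length it was found in 28.3%. TATAAA was present in 2 of the 6, at -30 in Crybb1 and on the reverse strand at -185 in Golm1, against 14.2% of all promoters. CAGAC, the SMAD element, was found in 5 of the 6 and in 49.7% of all promoters, and TGANTCA, the AP-1 element, in 0 of the 6 and in 7.93%. Both strands were searched, and no 2 of these motifs overlap. These matches are letters in a window and were not set against the expression values.

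The encoded proteins, translated from the principal GENCODE transcripts, differ in how many hydrophobic stretches they hold, counted as separate windows of 19 residues with a mean Kyte-Doolittle hydropathy of at least 1.6. Gpr34, a receptor with 375 residues, has 6 such stretches, Upk1b (260 residues) and Cdh23 (3352 residues) have 4 each, and Tmem119 (280 residues) has 2. Golm1 (393 residues) has 1, in its first 40 residues. Olfml3, Sparc and Serpine2, the secreted proteins, have 0 in 406, 302 and 397 residues. Crybb1 and Nav3 also have 0, in 250 and 2366 residues. The highest mean hydropathy within the first 40 residues, where a signal peptide would lie, was 1.41 in Sparc, 1.23 in Olfml3 and 0.88 in Serpine2, and 0.75 in Nav3 and -0.33 in Crybb1, so that Serpine2 and Nav3 differed little.

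Libraries held 31534625 to 41730688 counts. Scaled by the TMM method, the summed CPM of 8 other microglial marker genes was 13468 to 16454 in microglia, 1782 to 3004 in parabiotic CD11c cells and 4921 to 13910 in transgenic CD11c cells, and that of 10 dendritic cell markers was 240 to 357, 26923 to 34512 and 4081 to 17006. In each group every gene of these lists was counted in at least 1 library. The dendritic cell list holds the MHC class II genes H2-Aa, H2-Ab1 and Cd74 beside genes such as Flt3 and Zbtb46, and the sum does not tell them apart. The other marker lists, of 10 genes each, in microglia, parabiotic and transgenic cells in turn, summed to 289 to 466, 1038 to 1177 and 509 to 1309 CPM for border macrophages, and to 866 to 1234, 1610 to 2069 and 708 to 2575 CPM for monocytes. Neutrophil markers reached at most 0.917 CPM in microglia and 18.4 CPM in transgenic cells, with Ly6g, Retnlg and Elane at 0 in microglia and Camp and Ngp at 0 in transgenic cells. In parabiotic replicates 3, 11 and 15 they summed to 6.39, 848 and 108 CPM. Of brain and vessel cells, astrocyte markers summed to 118 to 192, 18.2 to 21.8 and 30.5 to 67.2 CPM, those of oligodendrocytes and their precursors to 283 to 428, 234 to 284 and 220 to 349 CPM, those of endothelium to 47.7 to 51.9, 29.9 to 43.1 and 21.8 to 43.4 CPM, and those of pericytes and fibroblasts to 3.67 to 8.35, 6.30 to 52.4 and 9.12 to 23.2 CPM. Neuron markers stayed at or under 6.30 CPM and lymphocyte markers at or under 5.03 CPM in every library, and Slc17a7 and Cd209f were at 0 in parabiotic cells. In such bulk samples fewer cells of a type and less RNA per cell cannot be told apart, and the part of any of these cell types in the levels below was not tested.

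All 10 signature genes were lowest on average in parabiotic CD11c cells, highest in microglia and in between in transgenic CD11c cells. In parabiotic cells the mean levels ranged from 0.225% of the microglial mean for Crybb1 to 12.3% for Tmem119. Transgenic cells held from 13.6% for Upk1b to 82.7% for Serpine2.

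**Figure D1:**
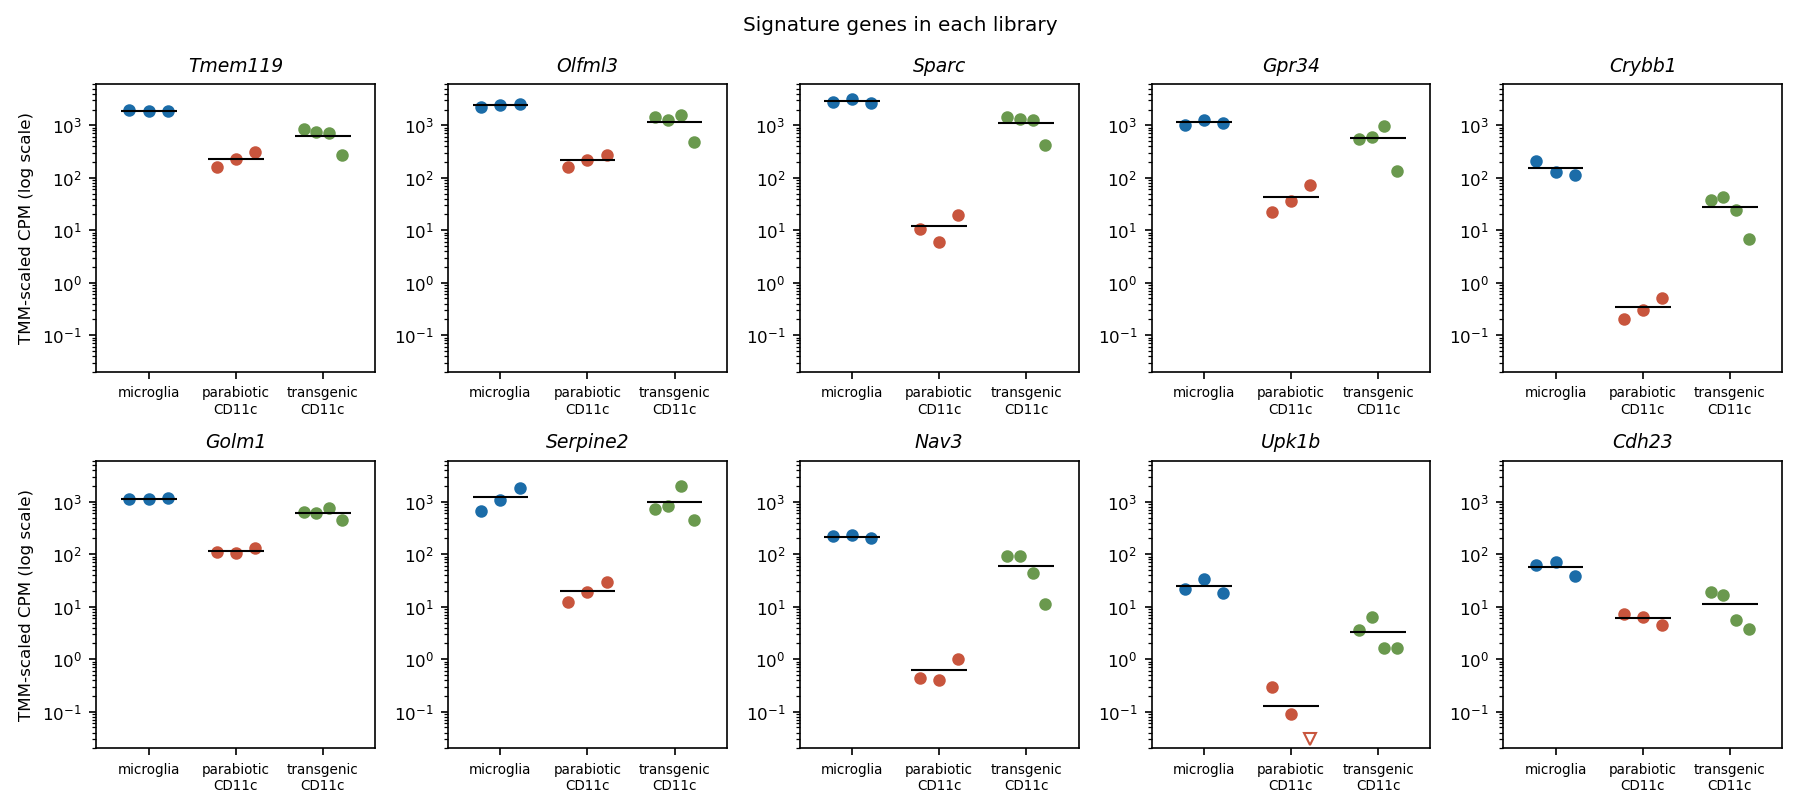
Level of each signature gene in TMM-scaled CPM on a log axis, with 1 point per library in replicate order and a black line at the group mean. The open triangle marks Upk1b in parabiotic replicate 15, where no read was counted. In each panel all parabiotic points lie below all microglial points.

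Sparc, a secreted calcium-binding glycoprotein that shapes the extracellular matrix, held 2803, 3204 and 2706 CPM in microglia replicates 39, 40 and 41 and 10.6, 5.94 and 19.7 CPM in parabiotic replicates 3, 11 and 15. The transgenic replicates 23, 24, 26 and 27 held 1420, 1316, 1243 and 430 CPM. The 3 groups did not overlap, and the lowest transgenic library was still above every parabiotic one. The SE given with a fitted log2 fold change is approximate here and in the rest of the text, derived from the F statistic of the fit. The fitted log2 fold change ± SE was -7.90 ± 0.60 in parabiotic cells and -1.37 ± 0.41 in transgenic cells against microglia. Between transgenic and parabiotic cells it was 6.53 ± 0.56. Serpine2, protease nexin-1, which inhibits thrombin and plasminogen activators, was the most variable member among the microglia, at 680, 1102 and 1849 CPM in replicates 39, 40 and 41. Its parabiotic levels were 12.4, 19.1 and 29.2 CPM, and its transgenic levels were 727, 843, 1979 and 456 CPM. The parabiotic libraries were all below the others, while transgenic and microglial libraries overlapped, with transgenic replicate 26 above every microglial one. The log2 fold changes were -5.88 ± 0.64 and -0.23 ± 0.48 against microglia, and the second turned to 0.19 without microglia replicate 41 and to 0.02 without transgenic replicate 27. Olfml3, a secreted olfactomedin-domain protein that binds BMP4, had levels of 2217, 2423 and 2602 CPM in microglia, 157, 221 and 267 CPM in parabiotic cells and 1416, 1237, 1588 and 486 CPM in transgenic cells. No libraries of different groups overlapped, and the differences from microglia were -3.47 ± 0.39 for parabiotic and -0.999 ± 0.33 for transgenic cells on the log2 scale.

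Tmem119, a single-pass membrane protein, was the most even gene of the microglial group beside Golm1, at 1926, 1911 and 1849 CPM. It was at 159, 229 and 310 CPM in parabiotic and at 832, 735, 717 and 268 CPM in transgenic replicates. Transgenic replicate 27 lay inside the parabiotic range, while both CD11c groups lay below microglia, by log2 fold changes of -3.01 ± 0.38 and -1.54 ± 0.33. Gpr34, a receptor for lysophosphatidylserine, held 1032, 1264 and 1128 CPM in microglia, 22.5, 36.7 and 72.6 CPM in parabiotic cells, and 542, 612, 988 and 134 CPM in transgenic cells. Its transgenic libraries spanned a 7.36-fold range, and replicate 26 came close to the lowest microglial library without reaching it. The log2 fold changes of Gpr34 were -4.68 ± 0.66 and -0.97 ± 0.52 against microglia and 3.70 ± 0.61 between the CD11c groups.

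Upk1b and Cdh23 had the lowest microglial levels per exon length of the membrane protein genes. Upk1b, a tetraspanin first known from the bladder epithelium, held 21.9, 33.1 and 18.7 CPM in microglia and 3.65, 6.46, 1.65 and 1.63 CPM in transgenic cells. In parabiotic replicates 3, 11 and 15 it had 10, 3 and 0 counts, which is 0.289, 0.0909 and 0 CPM, and a count of 0 in replicate 15 allows up to 0.0909 CPM on the same TMM scale (3 counts of the library total, counting error only). The groups did not overlap, but the parabiotic value rests mostly on 1 library: the log2 fold change against microglia was -7.52 ± 0.84 with all libraries and -8.95 without parabiotic replicate 3, and that of transgenic against parabiotic cells was 4.68 ± 0.78 and 6.10. Cdh23, the cadherin of the tip links of inner ear hair cells, was at 63.6, 70.4 and 38.8 CPM in microglia, 7.11, 6.45 and 4.52 CPM in parabiotic cells and 19.02, 16.9, 5.68 and 3.73 CPM in transgenic cells. Its transgenic replicates 23 and 24 were above all parabiotic libraries, replicate 26 was inside their range and replicate 27 below it. The log2 fold change of Cdh23 between the CD11c groups was 0.92 ± 0.50, the smallest of the 10 genes, beside -3.24 ± 0.57 and -2.32 ± 0.49 against microglia.

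Golm1, the Golgi membrane protein, had 1134, 1131 and 1172 CPM in microglia, 112, 107 and 135 CPM in parabiotic cells and 632, 619, 753 and 447 CPM in transgenic cells. It had the smallest approximate SE of the members, with log2 fold changes of -3.26 ± 0.20, -0.87 ± 0.17 and 2.40 ± 0.19 in the 3 comparisons. No groups overlapped. Naa35, the gene with shared exon bases on the other strand, had 66.8 to 75.4 CPM in microglia, 24.2 to 30.1 CPM in parabiotic and 37.7 to 68.7 CPM in transgenic cells. Crybb1, the lens crystallin, was at 212, 129 and 113 CPM in microglia and at 0.202, 0.303 and 0.515 CPM in parabiotic cells, where the 3 libraries together held 34 counts. Transgenic cells held 37.5, 42.1, 24.4 and 6.90 CPM of Crybb1, and its log2 fold changes were -8.77 ± 0.76 and -2.43 ± 0.48 against microglia. Nav3, which binds the growing ends of microtubules, had 219, 229 and 201 CPM in microglia, 0.434, 0.394 and 1.00 CPM in parabiotic cells (61 counts in all) and 93.5, 90.8, 43.9 and 11.3 CPM in transgenic cells. No groups overlapped for Crybb1 or Nav3, and the log2 fold changes of Nav3 were -8.45 ± 0.82 and -1.83 ± 0.53 against microglia and 6.62 ± 0.76 between the CD11c groups.

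Levels of different genes were ordered only after division by exon length. In microglia Tmem119 (819 CPM per kb) and Sparc (767) led with overlapping libraries, followed without overlap by Gpr34 (546), Olfml3 (392) and Golm1 (259 CPM per kb). Crybb1 (153 CPM per kb) and Serpine2 (146) overlapped, as did Nav3 (14.2) and Upk1b (11.7), and Cdh23 was lowest at 3.40 CPM per kb. In parabiotic cells Tmem119 stayed first at 100.5 CPM per kb, above Olfml3 (34.9), Golm1 (26.6) and Gpr34 (21.03), which overlapped in turn. Sparc, next to first in microglia, was behind these there at 3.18 CPM per kb and overlapped Serpine2 at 2.44. In transgenic cells the first 6 genes, Sparc (291 CPM per kb), Tmem119 (276), Gpr34 (272), Olfml3 (192), Golm1 (139) and Serpine2 (121), each overlapped the next.

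**Figure D2:**
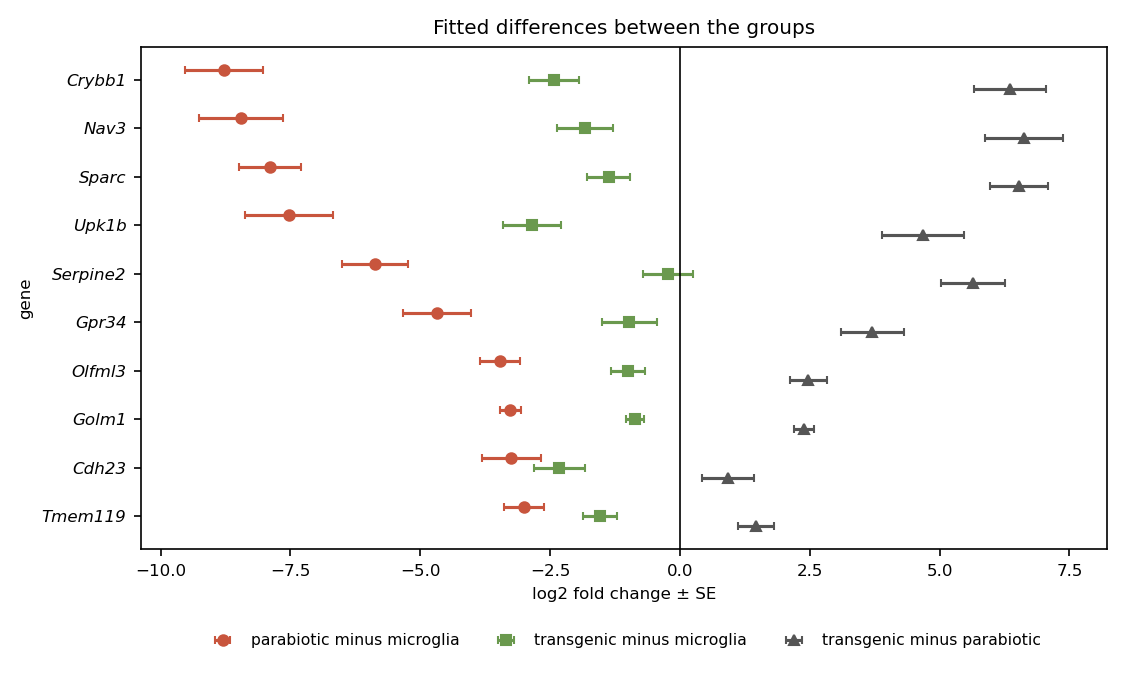
Fitted log2 fold change with its approximate SE, derived from the F statistic, for each signature gene in the 3 comparisons, from 1 fit over all 10 libraries. Differences of parabiotic cells from microglia run from -8.77 (Crybb1) to -3.01 (Tmem119), and those of transgenic cells from -2.85 (Upk1b) to -0.23 (Serpine2). Comparisons that share a group are not independent.

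Between parabiotic cells and microglia the libraries did not overlap for 10 of the 10 genes, all lower, while 30.4% of the 15151 tested genes were lower without overlap. The median log2 fold change of the 10 was -5.28, against -0.02 over all tested genes. Between transgenic cells and microglia 9 of the 10 were lower without overlap, Serpine2 being the exception, beside 16.2% of tested genes, and the median was -1.46 against 0.02. Between transgenic and parabiotic cells 8 of the 10 were higher without overlap, beside 11.9% of tested genes, with Tmem119 and Cdh23 overlapping, and the median was 4.19 against 0.04. Without transgenic replicates 26 and 27 this last count was 10 of 10. Since the genes were chosen with their levels known, nothing is read from these counts. The comparisons share groups, so that each is a view of the same libraries.

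The genes differed in how much of the microglial level was found in parabiotic cells. Mean levels under 1% of the microglial mean were found for 4 genes: Crybb1 at 0.225%, Nav3 at 0.282%, Sparc at 0.415% and Upk1b at 0.517%. Serpine2 was at 1.67% and Gpr34 at 3.85%, while Olfml3 (8.91%), Golm1 (10.3%), Cdh23 (10.5%) and Tmem119 (12.3%) held a larger share. The genes of the 2 secreted proteins Sparc and Olfml3 thus held different shares, at 0.204% to 0.677% and 6.51% to 11.1% over the parabiotic libraries. None of the 10 was over 20%. Of 35 other homeostatic microglial genes 17 were over 20% and 3 were under 1%. Both sets were chosen with earlier results of these data known, so nothing is read from the difference between them. The median share of the 10 genes was 1.58%, 2.40% and 4.39% in parabiotic replicates 3, 11 and 15, and that of the 35 other genes 17.5%, 18.4% and 25.4%. Replicate 15 held the highest parabiotic level of 8 of the 10 genes and of 26 of the 35, and the exceptions among the 10 were Upk1b and Cdh23. The 8 microglial markers summed to 1782, 2404 and 3004 CPM in the same libraries, the same order as the medians, and their part in these levels was not tested.

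**Figure D3:**
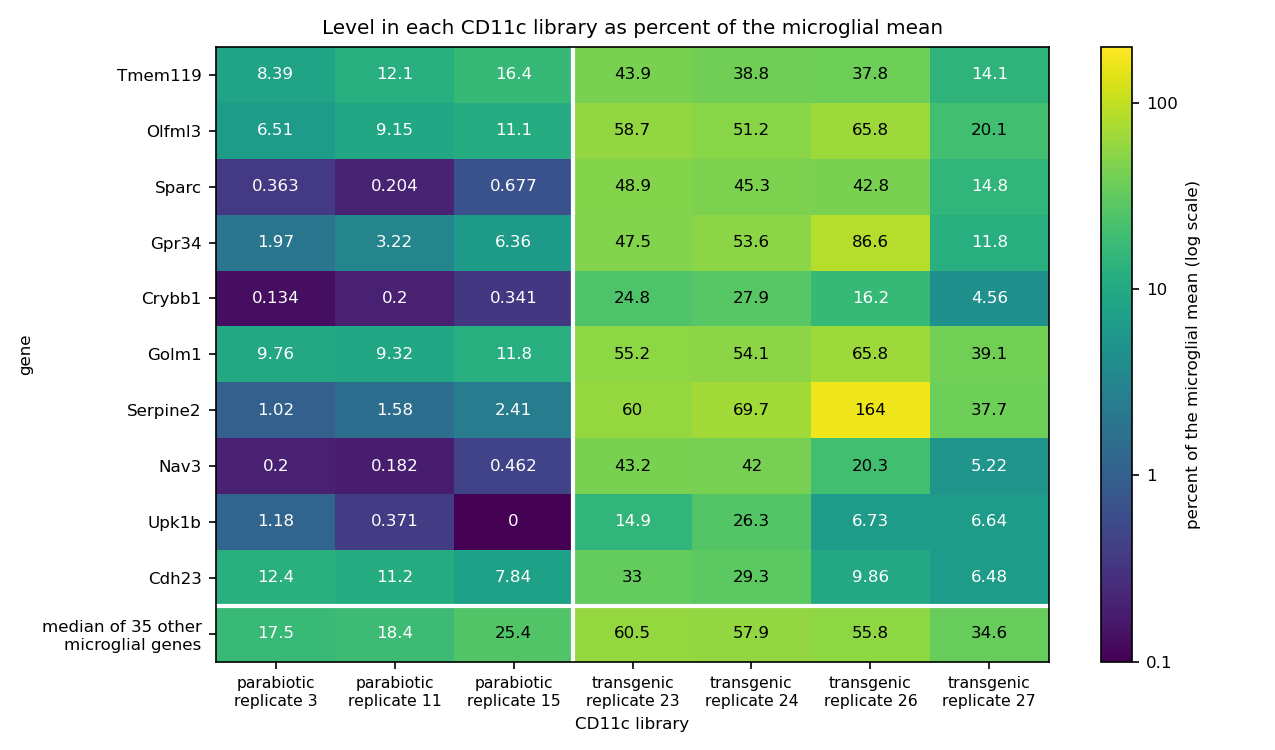
Level of each signature gene in each CD11c library as a percentage of its mean in microglia (cell text, log color scale), with the median of 35 other microglial genes in the bottom line. The 10 genes stay at or under 16.4% in the parabiotic libraries, and transgenic replicate 27 is the lowest transgenic library for all 10.

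Levels of the 10 genes spanned from 1.68-fold (Golm1) to 8.28-fold (Nav3) over the transgenic libraries. Replicates 23 and 24 were close, with a ratio of replicate 24 to 23 between 0.873 (Olfml3) and 1.16 (Serpine2) for 9 genes and 1.77 for Upk1b. All 10 genes were lowest in replicate 27, as were 30 of the 35 other homeostatic genes, and the median share of the 10 there was 12.9% beside 45.7%, 43.6% and 40.3% in replicates 23, 24 and 26. The microglial markers summed to 8437, 8919, 13910 and 4921 CPM in replicates 23, 24, 26 and 27, the dendritic cell markers to 15753, 17006, 4081 and 6740 CPM, and the border macrophage markers to 509, 607, 634 and 1309 CPM. Replicates 26 and 27 also carry library numbers apart from those of the other libraries whose labels give one, and had the highest totals, 41211278 and 41730688 counts. The part of any of these in the spread of the 10 genes was not tested.

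Replicate 26 split the genes. Serpine2 stood at 164% of its microglial mean there, Gpr34 at 86.6%, and Olfml3 and Golm1 at 65.8% each, and for these 4 genes replicate 26 was the highest transgenic library. Sparc (42.8%) and Tmem119 (37.8%) were a little below their levels in replicates 23 and 24. Nav3 (20.3%), Crybb1 (16.2%), Cdh23 (9.86%) and Upk1b (6.73%) were far below their levels in replicates 23 and 24. Serpine2 was the only one of the 10 over 100% in replicate 26, as were 8 of the 35 other homeostatic genes. Inside the microglial group replicate 41 had the highest TMM-scaled level of Serpine2, Olfml3 and Golm1. It had the lowest of Tmem119, Sparc, Crybb1, Nav3, Upk1b and Cdh23, while Gpr34 was highest in replicate 40 and lowest in 39. The TMM-scaled spread in microglia was 2.72-fold for Serpine2, 1.88-fold for Crybb1, 1.82-fold for Cdh23 and 1.77-fold for Upk1b, and at most 1.22-fold for the other 6 genes. For Golm1 and Tmem119 it was only 1.04-fold. Scaled only to the library total, Golm1 was lowest in replicate 41, at 1202, 1155 and 1114 CPM in replicates 39, 40 and 41. Olfml3 was then level in replicates 40 and 41, at 2475 CPM. Gpr34 was then also lowest in replicate 41, at 1095, 1291 and 1072 CPM in replicates 39, 40 and 41. Over the 10 libraries, the lowest correlation of log2(CPM + 1) between any pair of the genes was that of Serpine2 with Cdh23 (r = 0.534) and the highest that of Crybb1 with Nav3 (r = 0.992). All such values are descriptions that share the 3 groups and the same libraries.

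The 35 other homeostatic microglial genes, a list of receptors, complement chains, lipid and purine handling genes and the transcription factors Sall1 and Sall3, were tested in the fit across all genes (edgeR's quasi-likelihood test with Benjamini-Hochberg adjustment at 0.05). In parabiotic cells against microglia 31 fell, 1 rose and 3 did not pass, with a median log2 fold change of -2.36, while 17.9% of all tested genes were lower and 17.4% higher. Sall3 fell from 160 ± 19.4 to 0.170 ± 0.144 CPM (SD, n = 3 each), by an edgeR log2 fold change of -9.84 ± 0.63 with an adjusted p of 2.93e-06. Gpr84, a receptor for medium-chain fatty acids, fell from 603 ± 5.41 to 7.39 ± 0.744 CPM (SD, n = 3 each; log2 fold change -6.33 ± 0.41, edgeR adjusted p = 3.27e-06). Pros1, the bridging protein S for dying cells, fell from 530 ± 43.6 to 71.5 ± 3.14 CPM (SD, n = 3 each; log2 fold change -2.87 ± 0.18, edgeR adjusted p = 2.63e-06). The gene that rose was Abcc3, an organic anion transporter, from 310 ± 15.4 to 452 ± 31.2 CPM (SD, n = 3 each; log2 fold change 0.56 ± 0.15, edgeR adjusted p = 0.0124), and this call was lost without microglia replicate 40 (edgeR adjusted p = 0.0770) or parabiotic replicate 11 (0.0549).

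In transgenic cells against microglia 17 of the 35 fell and 18 did not pass, with a median of -0.86, beside 4.79% of tested genes lower and 8.88% higher. By edgeR 0 rose, also 0 at an unadjusted p under 0.05 and 0 with DESeq2 and limma-voom. The 17 became 7 with only the 2 groups in the fit or with a term for transgenic replicates 26 and 27, 6, 5 and 9 without microglia replicates 39, 40 and 41, and 21 without transgenic replicates 26 and 27. That term covers transgenic libraries only, so the transgenic mean then rests on replicates 23 and 24. In transgenic against parabiotic cells 24 of the 35 were higher and 11 did not pass, with a median of 1.41, beside 7.63% of tested genes higher and 2.42% lower. None was lower by edgeR's adjusted p or by limma-voom, 1 was at an unadjusted p under 0.05 and 1 by DESeq2. The 24 became 13 without parabiotic replicate 3 and 14 without parabiotic replicate 11.

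**Figure D4:**
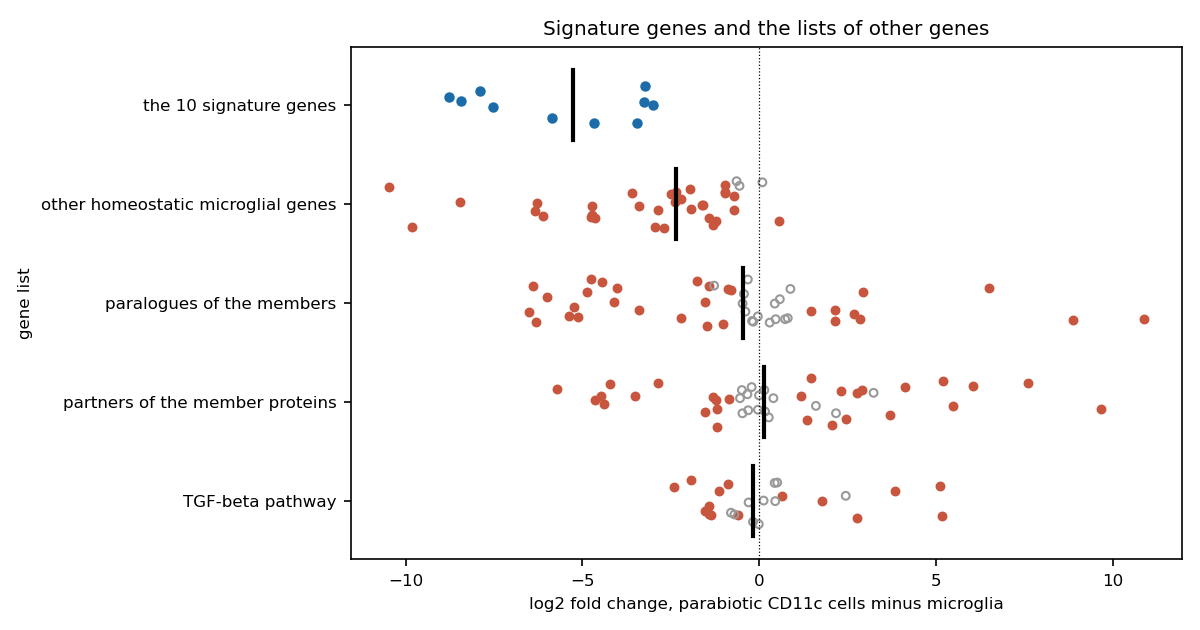
Log2 fold change of parabiotic CD11c cells against microglia for the 10 signature genes (blue, not tested) and the tested genes of 4 lists, with red points for edgeR adjusted p under 0.05, open gray points for genes that did not pass, and a black bar at the median of each list. The signature genes all lie at -3.01 or lower, with a median of -5.28, and the 35 other microglial genes have a median of -2.36.

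Known partners of the 10 proteins, such as proteases that Serpine2 inhibits, the enzymes and receptors of lysophosphatidylserine, BMP signalling genes and collagens bound by Sparc, included genes that fell and genes that rose. Of 59 listed partners 56 were in the table and 43 were tested, of which 13 fell, 15 rose and 15 did not pass in parabiotic cells against microglia, with a median log2 fold change of 0.15 beside -0.02 over all genes, of which 17.9% were lower and 17.4% higher. Bmpr1a, a BMP receptor, fell from 29.5 ± 1.02 to 0.553 ± 0.231 CPM (SD, n = 3 each; log2 fold change -5.71 ± 0.30, edgeR adjusted p = 1.02e-06). St14, the membrane protease matriptase, fell by 4.46 and Mmp2, a matrix metalloproteinase, by 4.63 on the log2 scale (edgeR adjusted p = 7.20e-06 and 1.31e-05). P2ry10, a receptor that shares the ligand lysophosphatidylserine with Gpr34, went the other way, from 0.291 ± 0.112 to 238 ± 55.6 CPM (SD, n = 3 each; log2 fold change 9.66 ± 0.77, edgeR adjusted p = 9.01e-06). It held 81.9 ± 43.2 CPM (SD, n = 4) in transgenic cells. Mmp14, a membrane metalloproteinase, rose by 2.46 and Runx2, a transcription factor that Tmem119 was linked to in bone, by 5.19 on the log2 scale (edgeR adjusted p = 4.40e-05 and 0.000214).

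Genes related in sequence to the 10 included some that fell and some that rose. Of 66 listed symbols 62 were in the table and 45 were tested. The symbols Aim1 and Golm2 on the list are other names of Crybg1 and Casc4, which were tested. In parabiotic cells against microglia 21 fell, 9 rose and 15 did not pass, with a median of -0.47. Over all tested genes 17.9% were lower and 17.4% higher, and the 9 that rose are a share near the latter. P2ry12, the microglial ADP receptor of the family of Gpr34, fell from 1910 ± 237 to 70.3 ± 7.99 CPM (SD, n = 3 each; log2 fold change -4.75 ± 0.31, edgeR adjusted p = 3.28e-06), and it is also 1 of the 35 homeostatic genes. Gpr171, another receptor of that family, rose from 0.685 ± 0.200 to 323 ± 73.5 CPM (SD, n = 3 each; log2 fold change 8.88 ± 0.71, edgeR adjusted p = 9.47e-06). Among the tetraspanins related to Upk1b, Cd81 fell by 5.24 and Tspan7 by 6.31 on the log2 scale (edgeR adjusted p = 4.30e-06 and 1.31e-05). Cdh1, the E-cadherin gene, was at 0.0425 ± 0.0369 CPM in microglia and 83.5 ± 23.2 CPM in parabiotic cells (SD, n = 3 each; edgeR adjusted p = 1.99e-05), opposite to Cdh23. Olfm1, an olfactomedin related to Olfml3, rose from 2.61 ± 0.335 to 233 ± 20.7 CPM (SD, n = 3 each; log2 fold change 6.496 ± 0.51, edgeR adjusted p = 7.76e-06).

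Of 27 genes of the TGF-beta pathway, on which microglial identity depends, 25 were tested, and 9 fell, 6 rose and 10 did not pass in the same comparison, with a median of -0.18, beside 17.9% of all tested genes lower and 17.4% higher. Smad3, a transcription factor activated by the receptor, fell from 105 ± 6.58 to 19.7 ± 3.02 CPM (SD, n = 3 each; log2 fold change -2.40 ± 0.31, edgeR adjusted p = 0.000152). The co-receptor gene Eng fell by 1.93 and the receptor gene Acvr1 by 1.55 on the log2 scale (edgeR adjusted p = 4.40e-05 and 0.000424). The genes named for a rise were Smad6, an inhibitory SMAD, Ltbp3, which binds latent TGF-beta, and Thbs1, a matrix protein that can activate it. Thbs1 rose from 136 ± 77.3 to 4620 ± 969 CPM (SD, n = 3 each; log2 fold change 5.12 ± 0.64, edgeR adjusted p = 0.000141), Smad6 by 1.78 and Ltbp3 by 2.77 on the log2 scale (edgeR adjusted p = 0.000137 and 0.000153).

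Among 7256 other genes with at least 20 CPM in a group mean, the profile most like the mean standardized profile of the 10 over the 10 libraries was that of Capn3, a calcium-dependent protease, with r = 0.998 on log2(CPM + 1). Its level was 196 CPM in microglia, 5.25 CPM in parabiotic and 62.1 CPM in transgenic cells on average. It was followed by Pde3b, P2ry12, Ets1, Adgra3, Rgl3, Arsb, Adgrg1, Tln2 and Man1a2, the last at r = 0.994. P2ry12 and Adgrg1 belong to the list of 35 homeostatic genes. The closest single gene differed between the members given here: Arvcf for Olfml3 (r = 0.992), Npnt for Sparc (0.998), Otud1 for Gpr34 (0.990) and Pde3b for Crybb1 (0.997). It was Wtip for Golm1 (r = 0.996), Ch25h for Serpine2 (0.996), Itgb3 for Nav3 (0.997), Sbf2 for Upk1b (0.990) and Dock2 for Cdh23 (0.986). Cdh23 was least like the mean profile of the 10, with r = 0.826, then Serpine2 with 0.915, and Crybb1 most like it with 0.995. All these correlations are over 10 libraries that fall into the same 3 groups, so a gene that orders the groups alike has a high value.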

How the data were processed

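RNA of sorted cells was sequenced in 10 libraries, grouped by the labels and titles as 3 of microglia, 3 of parabiotic and 4 of transgenic CD11c cells. The values the authors deposited are raw counts per Ensembl gene, 31534625 to 41730688 per library. Per the labels' protocols, cDNA was made from 1 or 5 ng of RNA by template switching with 11 or 9 cycles of PCR, with no value given per library. STAR 2.5.3a, FastQC 0.11.5 and DESeq2 are named in the submitters' processing notes, with the build GRCm38. Which program counted the reads, on which annotation and with which strand setting, was not given in the sources used here. GENCODE M21 gave a symbol for 28492 of 28585 identifiers.

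All libraries entered 1 fit with group means in edgeR 4.0.16 (R 4.3.3): filterByExpr, TMM scaling, robust quasi-likelihood F tests and Benjamini-Hochberg adjustment over the 15151 tested genes, with a threshold of 0.05. The SE of an edgeR log2 fold change was its absolute value divided by the square root of the F statistic, an approximation. CPM are TMM-scaled, and exon length is that of merged exons. The fit was also run on simulated counts with the same spread for all genes and no divergent libraries, unlike these data. Its outcome is not given here. The 10 genes, the 4 gene lists and the 11 marker lists were chosen with earlier results of these data known, and no list was tested as a set. The text names all 10 genes, from each list up to 3 genes with the lowest p in each direction of the parabiotic comparison, the 10 genes most like the mean profile (log2 with a pseudocount of 1) and the closest gene to each, of which 1 is not reported here. Hydropathy was computed from principal GENCODE coding sequences, and promoters came from RefSeq.

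Alternatives were RLE, upper quartile or no scaling, a fit of only the 2 groups compared, the low-count filter dropped or made stricter (5 CPM or more in 3 or more libraries), a term for transgenic replicates 26 and 27, DESeq2 1.42.0, limma-voom (limma 3.58.1), each library left out in turn and, chosen after seeing the data, transgenic replicates 26 and 27 left out.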

Additional observations from a re-analysis of the deposited data

How the results depend on the processing

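Of 600 recomputed fold changes of the 10 genes, 596 kept their direction within the spread between replicates, 2 values of Upk1b moved, both without parabiotic replicate 3, and 2 of Serpine2 in transgenic cells against microglia changed sign, to 0.19 without microglia replicate 41 and to 0.02 without transgenic replicate 27 (-0.83 to 0.19 with each library left out in turn). The counts of genes without overlap were 10 and 9 against microglia under all 14 settings, and 8 to 10 between the CD11c groups. The median share of the microglial level per library, averaged over the libraries of a group, was 2.79% in parabiotic and 35.6% in transgenic cells. Under the alternatives it was 1.98% to 3.40% in parabiotic and 26.6% to 44.7% in transgenic cells, the last 2 for replicates 26 and 27 only and for 23 and 24 only. Counts over all genes moved more. With transgenic replicates 26 and 27 left out, the 2714 genes lower and 2633 higher in parabiotic cells than in microglia became 4108 and 4226, and the 367 lower and 1156 higher in transgenic than in parabiotic cells became 1425 and 2057. With only the 2 groups compared, the 725 lower and 1345 higher in transgenic cells than in microglia became 455 and 774, the 367 became 214, and the 17 lower homeostatic genes became 7. With a term for transgenic replicates 26 and 27, which leaves the transgenic mean to replicates 23 and 24, the 725 became 280 and the 17 became 7. DESeq2 gave 1464 for the 725, 844 for the 367 and 1 for the 0 homeostatic genes lower in transgenic than in parabiotic cells. Leaving out each library in turn gave 1683 to 3249 for the 2633 (lowest without microglia replicate 40), 165 to 883 for the 725 and 563 to 1801 for the 1345 (lowest without microglia replicates 39 and 40), 111 to 851 for the 367 and 719 to 1659 for the 1156 (lowest without parabiotic replicate 3). It gave 5 to 19 for the 17, 13 to 28 for the 24 homeostatic genes higher in transgenic than in parabiotic cells, and 0 to 1 for Abcc3. Scaling by the upper quartile moved the median of all genes in parabiotic cells against microglia to -0.10. The cause of these changes was not tested, beyond that fewer samples entered some of the fits. Upk1b, Crybb1 and Nav3 had 13, 34 and 61 counts in all parabiotic libraries, which limits how closely their remaining levels are known. No paired analysis was possible because the groups share no replicate numbers.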
